A study of Homo sapiens with 12 samples.

Results

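The nuclear genes for subunits of oxidative phosphorylation were followed in A549 cells, an established human lung adenocarcinoma line, after depletion of YAP and TAZ. Members were the protein-coding genes of GENCODE v29 whose symbols begin with NDUFA, NDUFB, NDUFC, NDUFS or NDUFV and a digit, with UQCR, with COX and a digit from 4 to 8, or with ATP5, together with SDHA, SDHB, SDHC and SDHD. This gave 90 of the 60617 gene identifiers in the tables: 37 for complex I, 4 for complex II, 9 for complex III, 19 for complex IV (NDUFA4 and NDUFA4L2 included) and 21 for complex V. A filter on low counts passed 85 of them, and COX4I2, COX6A2, COX7A1, COX7B2 and COX8C did not pass. The name rule also takes in the read-through genes NDUFC2-KCTD14 and ATP5MF-PTCD1, the near copies UQCRHL and ATP5MGL, and ATP5S, which is now named DMAC2L and is not counted as a subunit of the enzyme.

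The groups were cells that received siRNA combination siYAP/TAZ#1, cells that received siYAP/TAZ#2 and cells that received the non-targeting control siRNA (siCo), with 4 libraries each and RNA taken 24 hours after transfection. Both combinations target YAP1 and WWTR1, the gene of TAZ, in the same cells, so the targets were not depleted separately, and a single cell line was used. Levels are given in CPM, read counts relative to the library total after TMM scaling. Levels compared between genes are TPM, a unit that divides by transcript length, rescaled to the same total over protein-coding genes in each library. Calls come from edgeR's quasi-likelihood test over all 21581 genes that passed the filter, at a Benjamini-Hochberg adjusted p below 0.05.

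The respiratory chain of the inner mitochondrial membrane passes electrons from NADH through complex I, or from succinate through complex II, to ubiquinone, and on through complex III and cytochrome c to complex IV, which reduces oxygen. Complexes I, III and IV pump protons, and complex V, the ATP synthase, uses the gradient to make ATP. Complex II is built from nuclear genes alone, whereas the other complexes also hold subunits from mitochondrial DNA, and YAP and TAZ are coactivators that bind DNA through TEAD factors.

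Promoters of the members carry letters that are known to bind the respiratory-gene regulators NRF1, GABPA (an ETS factor) and YY1. RefSeq's table of GRCh38.p14 gave 83 windows of 300 bases, from 250 before to 50 after a start site, for 70 of the 90 members, of which 2 were matched by their present symbols (ATP5MK for ATP5MD and ATP5MJ for ATP5MPL). Searched on both strands, the NRF1 letters (GCGCA, any base, then GCGC) stood in 20.5% of member windows and in 7.38% of the 22198 windows of protein-coding genes (5.78% of all 35116 windows). The ETS letters CCGGAAG stood in 26.5% of member windows against 12.8% of the coding ones, and the YY1 letters AAGATGGC in 15.7% against 3.53%. At least 1 of these 3 motifs was found for 41 of the 70 members, which is 42 of the 83 member windows (50.6%), against 4702 of the coding windows (21.2%). The TEAD letters GGAATG stood in 9.64% of member windows against 12.2%, and the E-box CACGTG in 8.43% against 8.34%. No match of a motif overlapped a match of another in the member windows, and a match describes letters, not binding.

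The stretch before the start site is shown for NDUFA7, the 1 member called higher with both combinations, and ATP5MC1, which had the largest log2 change among those called lower with both. The E-box is in capitals, and none of the 5 motifs falls in the ATP5MC1 stretch, although an E-box lies just after its start site, past the printed bases.
NDUFA7 (GRCh38.p14 chr19:8321376-8321499, minus strand): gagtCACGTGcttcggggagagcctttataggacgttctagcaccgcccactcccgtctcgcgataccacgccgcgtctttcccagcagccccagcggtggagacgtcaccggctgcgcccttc
ATP5MC1 (GRCh38.p14 chr17:48892537-48892786, plus strand): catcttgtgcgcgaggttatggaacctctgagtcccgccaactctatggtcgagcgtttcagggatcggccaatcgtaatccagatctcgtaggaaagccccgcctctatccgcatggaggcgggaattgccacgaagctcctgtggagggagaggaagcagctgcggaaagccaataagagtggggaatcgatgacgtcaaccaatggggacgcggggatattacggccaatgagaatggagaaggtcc
Runs of 30 bases show motif matches of members whose values follow, the match in capitals and each written along its gene's strand.
UQCRFS1, NRF1 letters (GRCh38.p14 chr19:29213163-29213192, minus strand): gcgcctcctcGCGCCTGCGCcgtggttgga
ATP5PO, NRF1 letters (GRCh38.p14 chr21:33915809-33915838, minus strand): acgccaacgcGCGCGTGCGCccttgcgcgt
SDHD, NRF1 letters (GRCh38.p14 chr11:112086753-112086782, plus strand): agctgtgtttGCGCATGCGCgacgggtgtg
NDUFS3, ETS letters (GRCh38.p14 chr11:47578980-47579009, plus strand): tccacgtccgcCCGGAAGaagatctgctgc
NDUFS1, ETS letters (GRCh38.p14 chr2:206159583-206159612, minus strand): ggctggggccaCTTCCGGcggaactgcggg
ATP5PF, ETS letters (GRCh38.p14 chr21:25734894-25734923, minus strand): cggagccagggCCGGAAGtagagcggaggt
NDUFA7, YY1 letters (GRCh38.p14 chr19:8321343-8321372, minus strand): atcgcggacggAAGATGGCgtccgccaccc
The matches began 31, 24 and 110 bases before the start site in UQCRFS1, ATP5PO and SDHD, 83, 157 and 8 bases before it in NDUFS3, NDUFS1 and ATP5PF, and at base 15 after it in NDUFA7.

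The libraries held 29617111 to 38264296 estimated counts. YAP1 stood at 15.5% and 14.3% of its siCo level with siYAP/TAZ#1 and siYAP/TAZ#2, and WWTR1 at 13.7% and 13.5%, and no treated library reached a siCo library. Two-sided exact permutation p was 0.0286 in all of these comparisons, and groups of 4 cannot give a lower one. All 6 epithelial markers passed the filter, with a summed level of 5655 to 6359, 4646 to 7011 and 6743 to 7663 CPM in siYAP/TAZ#1, siYAP/TAZ#2 and siCo. The sum does not follow each gene: 3 were called higher and 1 lower with siYAP/TAZ#1, and 3 higher and 2 lower with siYAP/TAZ#2. Of the markers of other cells, 2 of 5 leukocyte genes passed (summed level 5.70 to 6.74, 6.32 to 9.37 and 2.47 to 2.89 CPM), 1 of 4 endothelial genes (0.535 to 1.15, 0.378 to 1.04 and 0.398 to 0.642 CPM) and 4 of 5 fibroblast genes (141 to 171, 102 to 155 and 104 to 116 CPM). The median level of the 4 fibroblast genes was 0.567 CPM, far below their summed level. The part of such other cells in the results was not tested. Replicate 1 of siYAP/TAZ#2 stood apart from its group for many members, and its weight is given beside the counts. In bulk RNA, fewer cells that express a gene and less RNA per cell cannot be told apart.

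At baseline the members covered a wide range of levels per length. In siCo the highest were complex IV genes: COX8A at 886 ± 35.5, COX6B1 at 886 ± 98.9 and COX6A1 at 801 ± 31.3 rescaled TPM (SD, n = 4). Their difference was within the spread of COX6B1. The highest genes of the other complexes in siCo were NDUFS8 for complex I (650 rescaled TPM), SDHC for complex II (146), UQCRC1 for complex III (189) and ATP5F1B, the catalytic beta subunit, for complex V (608). The median gene stood at 87.7, 86.2 and 79.0 rescaled TPM for complex I in siYAP/TAZ#1, siYAP/TAZ#2 and siCo, and at 176, 176 and 162 for complex IV. Summed over all members, the libraries held 13417 to 14214, 12624 to 14513 and 13041 to 13730 rescaled TPM in siYAP/TAZ#1, siYAP/TAZ#2 and siCo, and the ranges overlap. In CPM scaled by TMM, siYAP/TAZ#1 libraries summed to between 4224 and 4448 and siYAP/TAZ#2 libraries to between 4099.8 and 4457. The siCo libraries held 4561 to 4716, so in that unit every depleted library lay below every siCo library. TMM factors, which multiply the library totals, were also apart: 0.887 to 0.944 in siCo against 0.967 to 1.099 after depletion. Without these factors the members' median log2 changes were 0.145 and 0.127, and the sums were not compared. Mitochondrial ribosomal protein genes showed the same separation, with at most 3025 CPM after depletion and at least 3355 CPM in siCo. Sums of the mitochondrially encoded subunits overlapped.

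**Figure D1:**
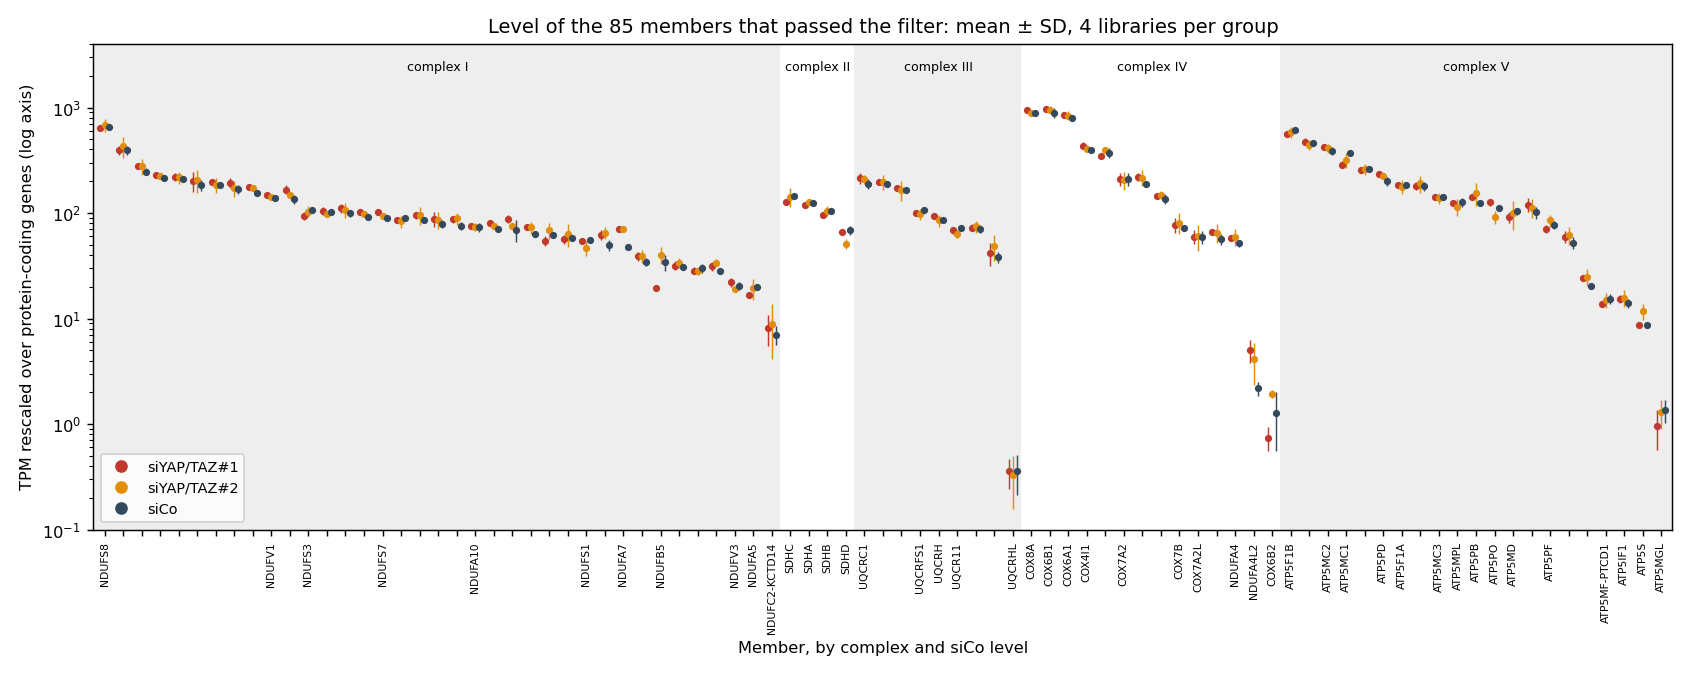
Mean level of each of the 85 members that passed the filter, in TPM rescaled over protein-coding genes (log axis, bars SD, 4 libraries per group), with siYAP/TAZ#1, siYAP/TAZ#2 and siCo side by side and members ordered within each complex by their siCo level and named where the text describes them. The groups lie close together for most members, NDUFB5 is lower with siYAP/TAZ#1 and SDHD with siYAP/TAZ#2, and the copies and tissue variants UQCRHL, ATP5MGL, COX6B2 and NDUFA4L2 lie at the low end.

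Depletion of YAP and TAZ left most members near their siCo level while a large part of all genes changed. With siYAP/TAZ#1 against siCo, 2 members were higher and 10 lower of 85 (14.1%), beside 34.9% of all genes tested (16.4% higher and 18.5% lower) and 45.1% of protein-coding genes. With siYAP/TAZ#2 against siCo, 2 were higher and 13 lower (17.6%), beside 38.2% of all genes tested (19.0% higher and 19.2% lower) and 49.0% of protein-coding genes. The comparisons share the siCo libraries. The members' median log2 change was -0.03 with siYAP/TAZ#1 and -0.06 with siYAP/TAZ#2, beside 0.02 and 0.02 over all genes and -0.02 and -0.01 over protein-coding genes. Their spread was narrow: the interquartile range of log2 changes was 0.21 with siYAP/TAZ#1, against 0.56 over all genes, and absolute changes of 0.5 or more were seen in 3 members (3.53%) and 25.3% of all genes. With siYAP/TAZ#2 such changes were seen in 2 members (2.35%) and 28.4% of all genes. The members were also well measured, with a median level of 34.97 CPM against 21.2 CPM over protein-coding genes. Of the members not called, 67 of 73 with siYAP/TAZ#1 and 65 of 70 with siYAP/TAZ#2 had a 95% interval of the log2 change within 0.5 of 0.

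Scaling set the direction of the small changes. Scaled by library size alone, 16 members were higher and 3 lower with siYAP/TAZ#1, and 10 higher and 3 lower with siYAP/TAZ#2. Of all 21581 genes tested, 5876 were then higher and 1908 lower with siYAP/TAZ#1, and 6534 and 2041 with siYAP/TAZ#2. The members' medians then turned to 0.15 and 0.13, and those of all genes moved to 0.20 and 0.21. Relative to all genes the members stood at -0.05 and -0.08 under either of these scalings, and relative to protein-coding genes at -0.01 and -0.05. The offset depended on the unit. Relative to all genes it was 0.11 and 0.12 with limma on log2(TPM + 1), and -0.02 and -0.03 on log2(TPM + 0.1). Called the same way under both scalings were NDUFA7 (higher with both combinations), NDUFA4L2, NDUFB5, SDHC and ATP5MC1 (siYAP/TAZ#1), and COX6B2, NDUFS1, SDHD and ATP5PO (siYAP/TAZ#2). Single libraries moved the counts too. Without siYAP/TAZ#2 replicate 1, 3 members were higher and 19 lower with siYAP/TAZ#1, and 5 higher and 20 lower with siYAP/TAZ#2. The counts over all 21581 genes tested moved as well, to 4247 higher and 4946 lower with siYAP/TAZ#1, and 4613 and 4894 with siYAP/TAZ#2. The count of higher members was 1 with siYAP/TAZ#1 without any one of siYAP/TAZ#1 replicates 1, 3 and 4, siYAP/TAZ#2 replicate 4 and siCo replicates 1 and 2, and 1 with siYAP/TAZ#2 without siCo replicate 4.

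**Figure D2:**
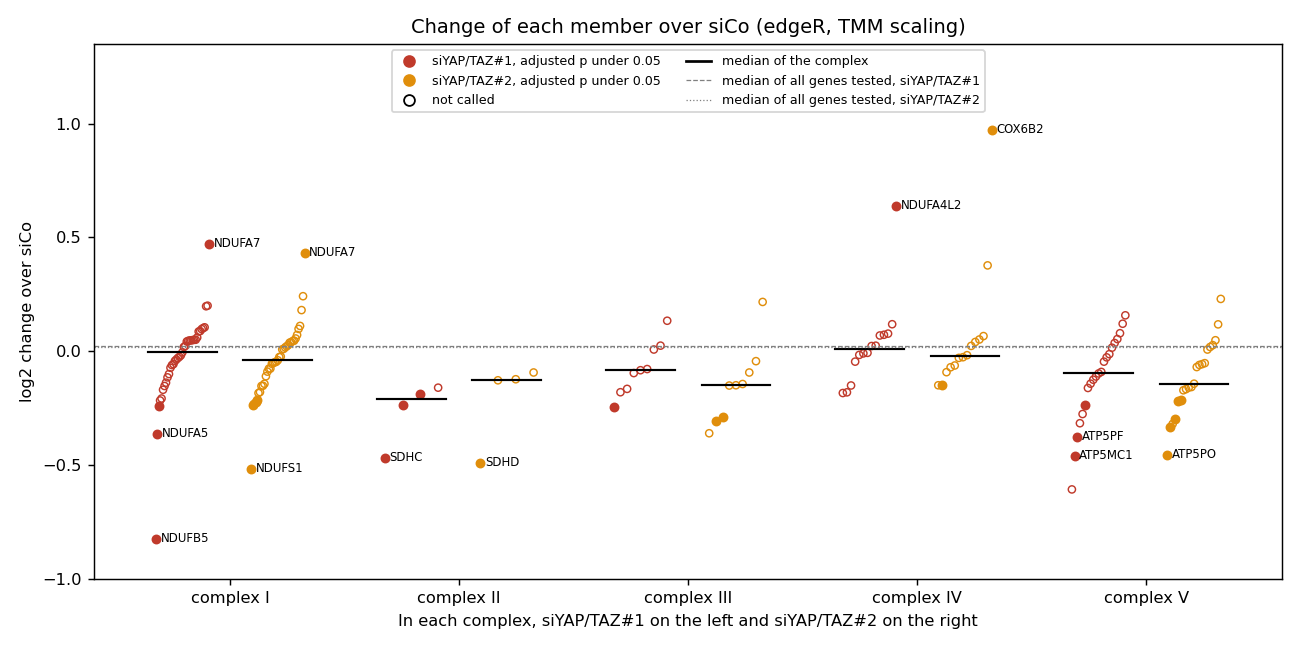
Log2 change over siCo of each member that passed the filter, by complex, with siYAP/TAZ#1 on the left and siYAP/TAZ#2 on the right of each complex (filled: adjusted p under 0.05; black line: median of the complex; grey lines: medians of all genes tested, 0.02 each). Most points lie between -0.5 and 0.5, and the medians of complex II, -0.21 and -0.13 (-0.04 and 0.07 with library size alone), lie below those of complexes I and IV.

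Complex I, the NADH dehydrogenase, had 1 member higher and 3 lower of 37 with siYAP/TAZ#1, and 1 higher and 4 lower with siYAP/TAZ#2. These are 10.8% and 13.5% of its members, against 34.9% and 38.2% of all genes tested. The balance turned with library size alone, to 9 and 5 higher and 1 and 1 lower, and the medians of -0.01 and -0.04 turned to 0.17 and 0.15. NDUFA7, an accessory subunit of the NADH-binding arm (chromosome 19, 8308768 to 8321396, minus strand), stood at 13.4, 12.4, 13.3 and 14.5 CPM with siYAP/TAZ#1 and at 14.98, 11.7, 12.2 and 13.4 CPM with siYAP/TAZ#2, against 9.11, 9.75, 10.5 and 9.35 CPM in siCo. Every treated library lay above every siCo library. Its log2 change was 0.47 ± 0.090 (SE, adjusted p = 0.00057) with siYAP/TAZ#1 and 0.43 ± 0.090 (adjusted p = 0.0011) with siYAP/TAZ#2, and it was the one member called higher with both. On the opposite strand it overlaps RPS28, a ribosomal protein gene at a mean of 162 CPM, whose log2 changes were -0.11 and -0.16 (adjusted p = 0.21 and 0.060).

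NDUFS3, a core subunit near the quinone site, stood at 38.1, 34.9, 32.5 and 33.9 CPM with siYAP/TAZ#1. With siYAP/TAZ#2 it stood at 36.5, 33.6, 37.1 and 34.2 CPM, against 40.0, 42.9, 41.4 and 40.5 CPM in siCo. The treated libraries all lay below the siCo libraries, though by little. It fell by 0.24 and 0.22 on the log2 scale (SE 0.063 each, adjusted p = 0.0064 and 0.010), and neither call held with library size alone (adjusted p = 0.46 and 0.70). It overlaps PTPMT1 (log2 change -0.18 with siYAP/TAZ#2, adjusted p = 0.046), KBTBD4 (log2 change -0.13 and 0.31) and CELF1 (log2 change -0.39 and -0.61, on the opposite strand at a mean of 203 CPM). Their part in the NDUFS3 counts was not tested, and the use of strand in counting is unknown here.

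NDUFB5, an accessory subunit of the membrane arm (chromosome 3, 179604690 to 179627647, plus strand), gave the widest change of any member with siYAP/TAZ#1. It stood at 8.18, 9.003, 8.39 and 9.38 CPM with siYAP/TAZ#1 and at 13.4, 16.7, 18.8 and 17.9 CPM with siYAP/TAZ#2, against 16.3, 12.9, 15.7 and 16.9 CPM in siCo. The siYAP/TAZ#1 libraries lay below all others, while siYAP/TAZ#2 and siCo overlap. The log2 change was -0.82 ± 0.110 with siYAP/TAZ#1 (adjusted p = 2.06e-05) and 0.11 ± 0.106 with siYAP/TAZ#2 (adjusted p = 0.46), and siYAP/TAZ#1 over siYAP/TAZ#2 gave -0.93 ± 0.109 (adjusted p = 1.23e-05).

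NDUFS1, the large iron-sulfur subunit of the NADH-binding arm, stood at 77.6, 76.3, 75.6 and 80.7 CPM with siYAP/TAZ#1 and at 48.6, 65.4, 68.7 and 69.3 CPM with siYAP/TAZ#2, against 89.1, 89.7, 87.3 and 94.2 CPM in siCo. The 3 groups do not overlap, and replicate 1 of siYAP/TAZ#2 is far below its group. Its log2 change stood at -0.22 ± 0.087 with siYAP/TAZ#1 (adjusted p = 0.067) and -0.52 ± 0.088 with siYAP/TAZ#2 (adjusted p = 0.00019). For siYAP/TAZ#1 over siYAP/TAZ#2 it was 0.30 ± 0.088 (adjusted p = 0.028), a call that was lost without any one of the 4 siYAP/TAZ#1 libraries (adjusted p = 0.055 to 0.076). Without siYAP/TAZ#2 replicate 1 the change with siYAP/TAZ#1 was called (adjusted p = 0.00036).

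The other complex I calls were small. NDUFA5, an accessory subunit near the quinone site, was lower with siYAP/TAZ#1 by 0.36 on the log2 scale (adjusted p = 0.012). With siYAP/TAZ#2, NDUFA10, an accessory subunit of the membrane arm, was lower by 0.22 (adjusted p = 0.0043), and NDUFV3, an accessory subunit of the NADH-binding arm, by 0.24 (adjusted p = 0.017). The members NDUFV1, NDUFS7 and NDUFS8, all core subunits, were not called with either combination.

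Complex II, succinate dehydrogenase, which also belongs to the citric acid cycle, had none higher and 3 lower of 4 with siYAP/TAZ#1, and none higher and 1 lower with siYAP/TAZ#2. At an unadjusted p under 0.05 in edgeR, 4 were lower with siYAP/TAZ#1 and 1 with siYAP/TAZ#2, and DESeq2 also called 3 and 1. At an adjusted p under 0.05, 18.5% and 19.2% of all genes tested were lower, and 25.6% and 25.7% of protein-coding genes. Whether the counts of so small a complex differ from these shares was not tested. The median change of the 4 genes was -0.21 and -0.13, and with library size alone it was -0.04 with siYAP/TAZ#1 and turned to 0.07 with siYAP/TAZ#2. The membrane anchors SDHC and SDHD moved with different combinations. SDHC stood at 55.4, 55.9, 55.8 and 58.3 CPM with siYAP/TAZ#1 and at 56.8, 75.9, 79.1 and 73.6 CPM with siYAP/TAZ#2, against 81.9, 74.1, 75.9 and 79.9 CPM in siCo. The siYAP/TAZ#1 libraries were all below siCo, and of the siYAP/TAZ#2 libraries replicate 1 alone came down to them. In the test the log2 change was -0.47 ± 0.083 with siYAP/TAZ#1 (adjusted p = 0.00032), -0.13 ± 0.083 with siYAP/TAZ#2 (adjusted p = 0.25) and -0.34 ± 0.083 for siYAP/TAZ#1 over siYAP/TAZ#2 (adjusted p = 0.0091). The last was -0.14 (adjusted p = 0.53) once each library's effective transcript length was taken into account.

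SDHD stood at 35.1, 31.1, 33.4 and 36.3 CPM with siYAP/TAZ#1 and at 23.7, 29.5, 26.0 and 28.9 CPM with siYAP/TAZ#2, against 36.3, 38.2, 38.7 and 38.6 CPM in siCo. All siYAP/TAZ#2 libraries lay below the siYAP/TAZ#1 libraries, and these lay just below siCo. The log2 change was -0.16 ± 0.074 with siYAP/TAZ#1 (adjusted p = 0.11), -0.49 ± 0.075 with siYAP/TAZ#2 (adjusted p = 6.81e-05) and 0.33 ± 0.074 for siYAP/TAZ#1 over siYAP/TAZ#2 (adjusted p = 0.0054).

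SDHB, the iron-sulfur subunit, stood at 42.2, 39.5, 39.8 and 44.5 CPM with siYAP/TAZ#1 and at 41.6, 46.1, 45.5 and 46.1 CPM with siYAP/TAZ#2, against 47.1, 49.8, 47.5 and 50.8 CPM in siCo. It was lower with siYAP/TAZ#1 by 0.23 on the log2 scale (adjusted p = 0.0057), and the change of -0.12 with siYAP/TAZ#2 was not called (adjusted p = 0.12). With library size alone neither SDHB nor SDHA was called with siYAP/TAZ#1 (adjusted p = 0.61 and 0.86). SDHA, the flavoprotein subunit, averaged 122 ± 6.24 CPM with siYAP/TAZ#1 and 131 ± 7.70 CPM with siYAP/TAZ#2, against 139 ± 5.42 CPM in siCo (SD, n = 4 each). It was lower by 0.19 with siYAP/TAZ#1 (adjusted p = 0.019), a call lost without siYAP/TAZ#1 replicate 1 or 3 or siCo replicate 2 (adjusted p = 0.068, 0.064 and 0.053). Its pseudogenes took 14.97% of the family's counts, so its level is uncertain.

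Complex III, which passes electrons from ubiquinol to cytochrome c, had 1 lower of 9 with siYAP/TAZ#1 and 2 lower with siYAP/TAZ#2, and none was called higher by edgeR or DESeq2 or at an unadjusted p under 0.05. The lower ones are 11.1% and 22.2% of its members, against 18.5% and 19.2% of all genes tested. Scaling by library size alone gave 1 higher and 0 lower with each combination, and the medians of -0.08 and -0.15 turned to 0.09 and 0.04. Leaving out siYAP/TAZ#2 replicate 1 gave 0 and 1 higher and 2 and 2 lower. UQCRFS1, the Rieske iron-sulfur protein, stood at 165, 165, 155 and 160.2 CPM with siYAP/TAZ#1 and at 141, 156, 174 and 154 CPM with siYAP/TAZ#2, against 187, 189, 194 and 193 CPM in siCo. The treated libraries lay below all siCo libraries. It fell by 0.24 and 0.29 on the log2 scale (SE 0.061 each, adjusted p = 0.0050 and 0.0012), with neither call held at library size alone (adjusted p = 0.50 and 0.31), and its pseudogenes took 13.6% of the family's counts. UQCR11, a small accessory subunit, averaged 35.3 ± 2.48 CPM (siYAP/TAZ#1) and 31.9 ± 1.69 CPM (siYAP/TAZ#2), against 39.5 ± 1.85 CPM in siCo (SD, n = 4 each). It was lower with siYAP/TAZ#2 by 0.31 (adjusted p = 0.0015), and its change of -0.17 with siYAP/TAZ#1 was not called (adjusted p = 0.065). UQCRH, the hinge protein that binds cytochrome c1, was at 94.4, 85.2 and 85.6 rescaled TPM in siYAP/TAZ#1, siYAP/TAZ#2 and siCo and was not called, and its copy UQCRHL stood at 0.356, 0.328 and 0.361.

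Complex IV, cytochrome c oxidase, had 1 higher and none lower of 14 tested with siYAP/TAZ#1 (none lower by DESeq2 either, and 1 at an unadjusted p under 0.05), and 1 higher and 1 lower with siYAP/TAZ#2. Against 34.9% and 38.2% of all genes tested, these are 7.14% and 14.3% of the tested members of complex IV. Several of its subunits exist as a common form and a form known from muscle, lung, testis or low oxygen. The common forms COX4I1, COX6A1, COX6B1, COX7A2, COX7B and COX8A stood at 434, 856, 966, 209, 77.1 and 942 rescaled TPM with siYAP/TAZ#1, at 408, 839, 957, 203, 80.9 and 878 with siYAP/TAZ#2, and at 392, 801, 886, 209, 71.9 and 886 in siCo. Of these, COX8A alone was called, lower with siYAP/TAZ#2 by 0.15 (adjusted p = 0.04995). That call rested on every library other than siYAP/TAZ#2 replicate 1: without any one of the other 11 the adjusted p ran from 0.052 to 0.15.

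The other forms were rare or absent from the counts. COX6A2, the heart and muscle form, had no count in any of the 12 libraries. COX4I2, the lung form, had counts of 2 in siYAP/TAZ#1 replicates 2 and 4 and none elsewhere. COX8C had a single count in siYAP/TAZ#1 replicate 4, COX7B2 had 1.27 estimated counts in siCo replicate 1, and COX7A1 had 1 to 6 counts per library. For a gene without counts, the limit set by 3 counts was 0.0749 to 0.112 CPM per library, counting error only. These genes gave no fold change at this depth.

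COX6B2, a testis form, stood at 0.778, 0.422, 0.599 and 0.449 CPM with siYAP/TAZ#1 and at 1.96, 0.983, 1.02 and 0.970 CPM with siYAP/TAZ#2, against 0.886, 0.462, 0.674 and 0.483 CPM in siCo. The siYAP/TAZ#2 libraries lay above the others, replicate 1 far above. Its log2 change stood at 0.97 ± 0.309 with siYAP/TAZ#2 (adjusted p = 0.020), -0.15 ± 0.328 with siYAP/TAZ#1 (adjusted p = 0.77) and -1.12 ± 0.308 for siYAP/TAZ#1 over siYAP/TAZ#2 (adjusted p = 0.019). It rested on 14.5 to 61.7 estimated counts per library. Without siYAP/TAZ#2 replicate 1 the change with siYAP/TAZ#2 was 0.67 (adjusted p = 0.077), and without siCo replicate 2 or 4 it was 0.86 and 0.87 (adjusted p = 0.061 and 0.060). Between the combinations the call was lost without siYAP/TAZ#2 replicate 1 or siYAP/TAZ#1 replicate 2 or 4 (adjusted p = 0.051, 0.064 and 0.059).

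NDUFA4, a complex IV subunit named for complex I, and its paralog NDUFA4L2, known to be induced by low oxygen, differed widely in level, at 58.6, 59.8 and 51.7 against 4.99, 4.12 and 2.18 rescaled TPM in siYAP/TAZ#1, siYAP/TAZ#2 and siCo. NDUFA4L2 stood at 1.44, 1.04, 1.72 and 1.99 CPM with siYAP/TAZ#1 and at 1.48, 1.43, 0.939 and 1.34 CPM with siYAP/TAZ#2, against 0.794, 0.985, 1.199 and 1.02 CPM in siCo, and both treated groups overlap siCo. Its log2 change was 0.64 ± 0.230 with siYAP/TAZ#1 (adjusted p = 0.041) and 0.38 ± 0.234 with siYAP/TAZ#2 (adjusted p = 0.23). Leaving out any one of siYAP/TAZ#1 replicates 1, 3 and 4, siYAP/TAZ#2 replicate 4 and siCo replicates 1, 2 and 4 ended the call (adjusted p = 0.052 to 0.14). COX7A2L, which joins complexes III and IV, was not called with either combination (log2 change -0.18 and -0.15, adjusted p = 0.22 and 0.31).

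Complex V, the ATP synthase, had none higher and 3 lower of 21 with siYAP/TAZ#1, and none higher and 5 lower with siYAP/TAZ#2. The lower ones are 14.3% and 23.8% of its members, against 18.5% and 19.2% of all genes tested. DESeq2 called none higher either, and at an unadjusted p under 0.05 none was higher with siYAP/TAZ#1 and 1 with siYAP/TAZ#2. Complex V medians of -0.10 and -0.14 turned to 0.08 and 0.04 with library size alone. ATP5MC1 is 1 of 3 genes for the same c-ring protein of the rotor, and stood at 62.3, 55.4, 58.3 and 56.8 CPM with siYAP/TAZ#1 and at 53.2, 65.5, 71.3 and 63.9 CPM with siYAP/TAZ#2, against 82.0, 83.2, 76.3 and 78.6 CPM in siCo. Not one treated library reached the siCo libraries. It fell by 0.46 ± 0.076 on the log2 scale with siYAP/TAZ#1 (adjusted p = 0.00018) and by 0.33 ± 0.076 with siYAP/TAZ#2 (adjusted p = 0.0023), and with library size alone the first call held and the second did not (-0.14, adjusted p = 0.26). The other c-ring genes were not called: ATP5MC2 averaged 136 ± 8.08 CPM (siYAP/TAZ#1) and 128 ± 6.38 CPM (siYAP/TAZ#2), against 133 ± 12.3 CPM in siCo, and ATP5MC3 averaged 55.3 ± 2.06 CPM (siYAP/TAZ#1) and 53.2 ± 3.53 CPM (siYAP/TAZ#2), against 59.7 ± 5.03 CPM in siCo (SD, n = 4 each). Without siYAP/TAZ#2 replicate 3 or siCo replicate 2, ATP5MC3 was called lower with siYAP/TAZ#2 (-0.20 and -0.22, adjusted p = 0.046 and 0.016), and DESeq2 called it too (adjusted p = 0.049). In rescaled TPM, ATP5MC1, ATP5MC2 and ATP5MC3 stood at 287, 425 and 141 with siYAP/TAZ#1, at 320, 410 and 138 with siYAP/TAZ#2, and at 368, 389 and 141 in siCo.

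ATP5F1B, the catalytic beta subunit, stood at 472, 486, 466 and 509 CPM with siYAP/TAZ#1 and at 448, 503, 512 and 502 CPM with siYAP/TAZ#2, against 566, 568, 552 and 593 CPM in siCo. The treated libraries lay below all siCo libraries. It fell by 0.24 and 0.21 on the log2 scale (SE 0.056 each, adjusted p = 0.0032 and 0.0062), and neither call held with library size alone (adjusted p = 0.54 and 0.83). Its partner ATP5F1A, the alpha subunit, was lower with siYAP/TAZ#2 by 0.22 (adjusted p = 0.018) and not called with siYAP/TAZ#1 (-0.16, adjusted p = 0.079). ATP5MPL, a small membrane subunit, was the other member lower with siYAP/TAZ#2 (-0.30, adjusted p = 0.019).

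Of 4 subunits of the peripheral stalk, which holds the catalytic head still, ATP5PO was called with siYAP/TAZ#2 and ATP5PF with siYAP/TAZ#1, while ATP5PB (-0.01 and 0.12) and ATP5PD (0.12 and 0.03) were called with neither. ATP5PO stood at 35.7, 40.8, 34.5 and 41.2 CPM with siYAP/TAZ#1 and at 22.99, 27.3, 28.9 and 27.8 CPM with siYAP/TAZ#2, against 37.8, 35.9, 36.04 and 36.9 CPM in siCo. The siYAP/TAZ#2 libraries lay below all others. In the test the log2 change was 0.05 ± 0.078 with siYAP/TAZ#1 (adjusted p = 0.65), -0.45 ± 0.079 with siYAP/TAZ#2 (adjusted p = 0.00023) and 0.51 ± 0.079 for siYAP/TAZ#1 over siYAP/TAZ#2 (adjusted p = 0.00023). ATP5PF stood at 17.3, 18.2, 19.6 and 18.5 CPM with siYAP/TAZ#1 and at 22.9, 21.8, 23.3 and 24.0 CPM with siYAP/TAZ#2, against 22.5, 22.95, 24.0 and 26.1 CPM in siCo. Here the siYAP/TAZ#1 libraries lay below all others. The log2 change was -0.38 ± 0.069 with siYAP/TAZ#1 (adjusted p = 0.00041), -0.06 ± 0.068 with siYAP/TAZ#2 (adjusted p = 0.56) and -0.32 ± 0.068 for siYAP/TAZ#1 over siYAP/TAZ#2 (adjusted p = 0.0037). With effective transcript lengths taken into account, ATP5PF was called neither with siYAP/TAZ#1 (-0.25, adjusted p = 0.082) nor between the combinations (-0.24, adjusted p = 0.19), and with library size alone its change with siYAP/TAZ#1 was not called (adjusted p = 0.063). It overlaps GABPA on the opposite strand, described with the regulators. ATP5IF1, the inhibitor of the enzyme's ATP hydrolysis, averaged 6.60 ± 0.449 CPM (siYAP/TAZ#1) and 6.86 ± 1.23 CPM (siYAP/TAZ#2), against 6.82 ± 0.405 CPM in siCo, and was not called.

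**Figure D3:**
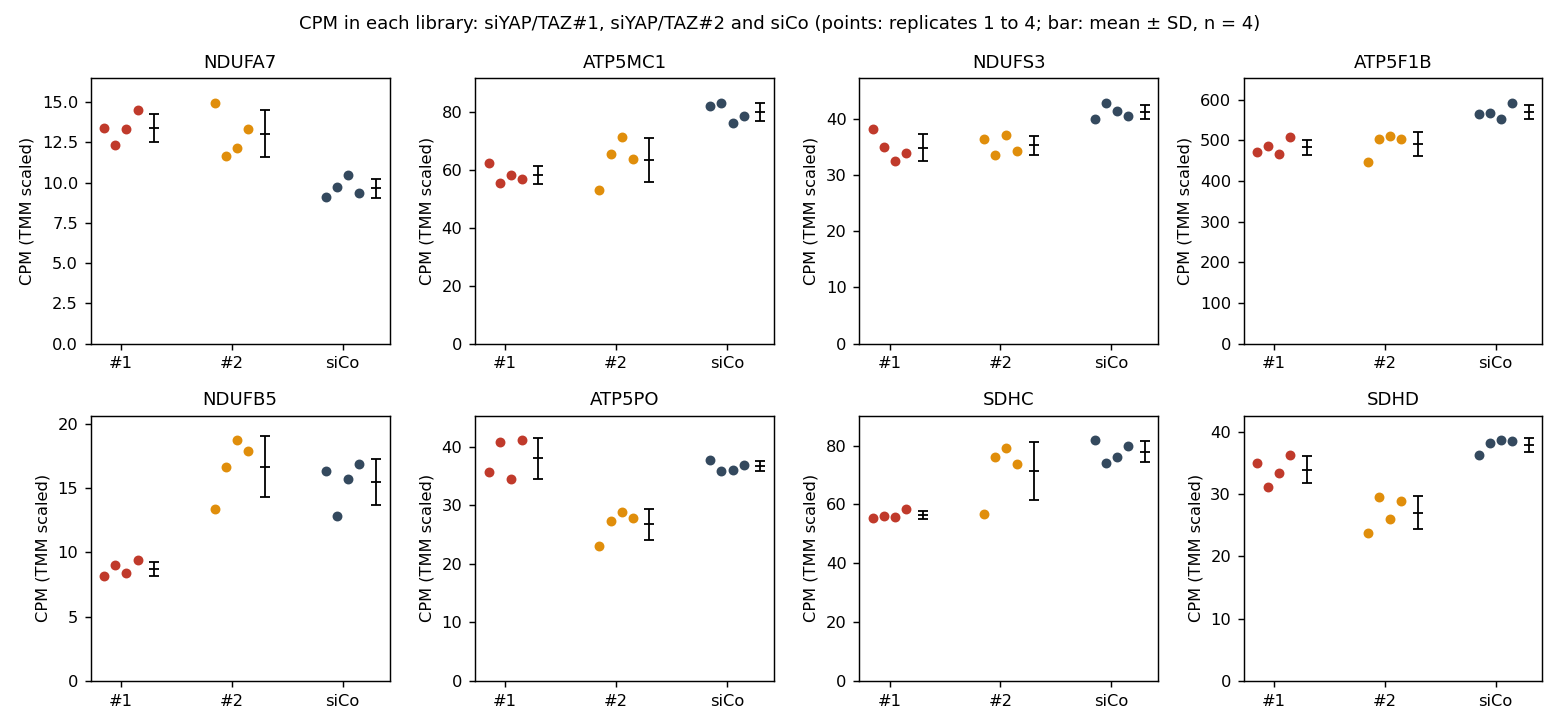
CPM in each library for 8 members, each panel from 0 with siYAP/TAZ#1 and siYAP/TAZ#2 left of siCo (points: replicates 1 to 4; bar: mean ± SD, n = 4). In the upper row, NDUFA7 lies above siCo in all 8 treated libraries and ATP5MC1, NDUFS3 and ATP5F1B lie below it; in the lower row, NDUFB5 and SDHC are low with siYAP/TAZ#1 and ATP5PO and SDHD with siYAP/TAZ#2.

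The combinations were then compared with each other. The siCo levels do not enter this difference, but the siCo libraries still enter the scaling and the estimate of spread. Of 85 members, 3 were higher and 4 lower with siYAP/TAZ#1 over siYAP/TAZ#2 (8.24%), beside 15.1% of all genes tested (6.92% higher and 8.20% lower) and 20.8% of protein-coding genes (9.28% higher and 11.5% lower), and the median log2 difference was 0.05 (-0.01 over all genes). ATP5PO, SDHD and NDUFS1 were the higher ones and COX6B2, NDUFB5, SDHC and ATP5PF the lower ones. Their 7 values lay from -1.12 to 0.51, and 73 of the 78 other members had a 95% interval within 0.5 of 0. Without siYAP/TAZ#2 replicate 1, 6 members were higher and 10 lower, beside 2302 higher and 2846 lower of all 21581 genes tested.

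Several members start close to a gene on the opposite strand, and the changes of both are given side by side without a test of their difference. The pairs given were picked after their values were seen. NDUFB5 starts 36 bases from MRPL47, a mitochondrial ribosomal protein gene, whose log2 change was -0.38 with siYAP/TAZ#1 (adjusted p = 0.017) and -0.10 with siYAP/TAZ#2 (adjusted p = 0.57), beside -0.82 and 0.11 for NDUFB5. SDHD starts 25 bases from TIMM8B, a mitochondrial import chaperone gene, whose changes of 0.19 and -0.19 were not called (adjusted p = 0.26 and 0.27), beside -0.16 and -0.49 for SDHD. NDUFS1 starts 18 bases from EEF1B2, a translation elongation factor gene, at -0.11 (adjusted p = 0.15) and -0.19 (adjusted p = 0.013), beside -0.22 and -0.52. NDUFV3 starts 76 bases from WDR4, a tRNA methylation gene, which was lower at -0.63 and -0.78 (adjusted p = 5.02e-07 and 4.10e-08), beside -0.03 and -0.24 for NDUFV3.

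Other genes of the same organelle were counted to place the members. With siYAP/TAZ#1 and siYAP/TAZ#2, 18.5% and 19.2% of all genes tested were lower, and 25.6% and 25.7% of protein-coding genes. The 27 genes of mitochondrial protein import were lower in 19 cases with siYAP/TAZ#1 and in 20 with siYAP/TAZ#2 (70.4% and 74.1%), none higher, with medians of -0.33 and -0.40. The receptor and channel genes TOMM20 and TOMM40 averaged 102 ± 5.03 and 305 ± 26.7 CPM with siYAP/TAZ#1 and 55.8 ± 8.15 and 302 ± 62.5 CPM with siYAP/TAZ#2, against 124 ± 6.52 and 557 ± 30.9 CPM in siCo, all called. DESeq2 called 0 of the 27 higher as well, and edgeR none at an unadjusted p under 0.05. With library size alone, 11 and 10 were lower and none higher. The 78 mitochondrial ribosomal protein genes were lower in 33 and 37 cases (42.3% and 47.4%) and higher in 1 and 1, with medians of -0.21 and -0.21. With library size alone they were lower in 6 and 10 and higher in 4 and 4. For the 98 cytosolic ribosomal protein genes tested, 18 and 44 were lower (18.4% and 44.9%) and 2 and 3 higher. With library size alone, 5 and 5 were lower and 8 and 6 higher. Without siYAP/TAZ#2 replicate 1 the cytosolic set had 38 and 60 lower. Without replicate 4 of all groups the mitochondrial set had 13 and 22 lower and the cytosolic set 7 and 24. Lower calls over all 21581 genes tested fell too in that setting, from 3998 and 4144 to 2863 and 3183.

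The 13 mitochondrially encoded subunits, partners of the members in complexes I, III, IV and V, gave no call in edgeR or DESeq2 with either combination. Of all genes tested, edgeR called 34.9% and 38.2%. At an unadjusted p under 0.05, 2 of the 13 were higher with siYAP/TAZ#1 and 0 changed with siYAP/TAZ#2. Without siYAP/TAZ#2 replicate 1 the test called 1 and 6 of them higher, beside 4247 and 4613 of all 21581 genes tested. With library size alone 3 and 6 of the 13 were higher, beside 5876 and 6534 of all genes tested. The medians of the 13 were 0.14 and 0.22, and 12 and 13 of them lay above 0. MT-ND4, a complex I core subunit, averaged 398 ± 46.8 CPM (siYAP/TAZ#1) and 429 ± 98.3 CPM (siYAP/TAZ#2), against 360.4 ± 48.1 CPM in siCo, and the spread was wide in each group. Of 3 nuclear genes outside the name rule, NDUFAB1, CYC1 (cytochrome c1) and CYCS (cytochrome c), NDUFAB1, the acyl carrier subunit of complex I, was lower with both (-0.23 and -0.38, adjusted p = 0.0087 and 0.00016). CYC1 and CYCS were not called by edgeR, and DESeq2 called 2 of these 3 genes lower with siYAP/TAZ#2.

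**Figure D4:**
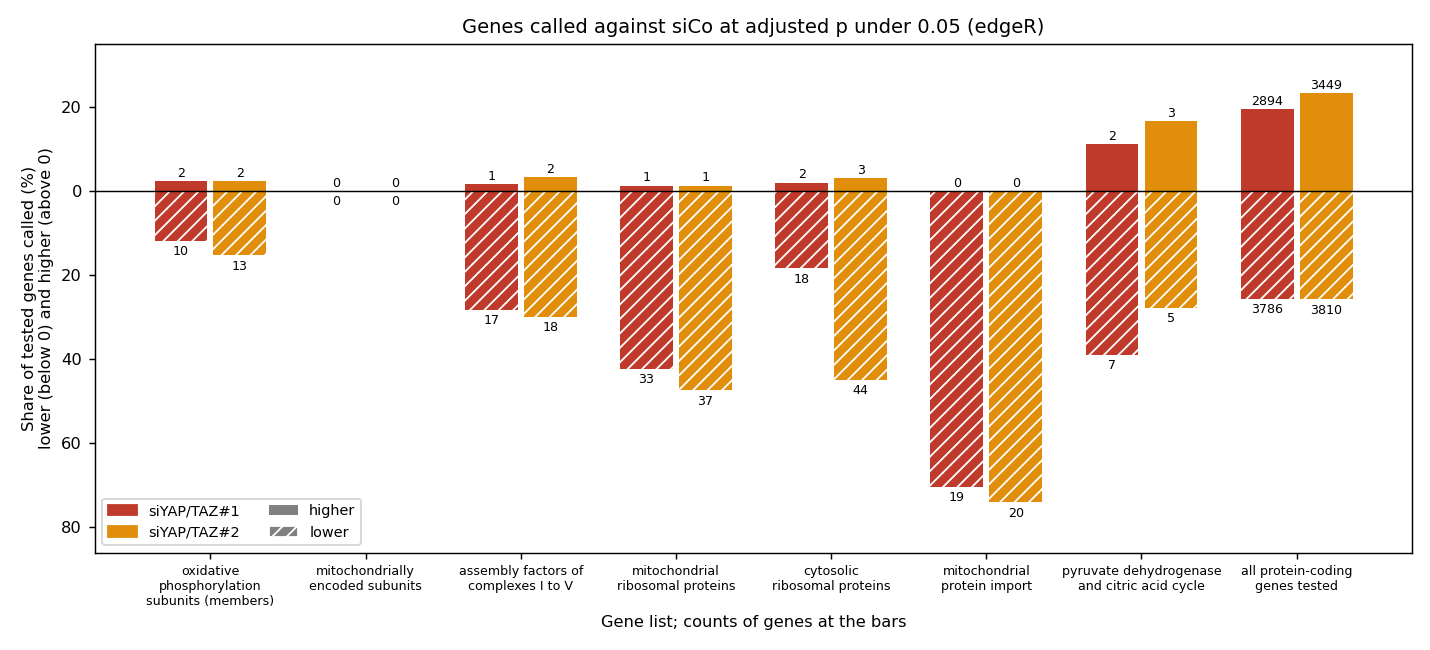
Share of tested genes called against siCo, higher above 0 and lower below 0 (hatched), with siYAP/TAZ#1 left of siYAP/TAZ#2 in each list and the count of genes at each bar (edgeR, adjusted p under 0.05). The members have 2 and 2 higher and 10 and 13 lower, the import genes 19 and 20 lower, and the mitochondrially encoded subunits none.

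Assembly factors, which build the complexes without staying in them, were lower in 17 and 18 of 60 cases and higher in 1 and 2. Of protein-coding genes tested, 25.6% and 25.7% were lower, against 28.3% of these factors with siYAP/TAZ#1 and the 18 of 60 with siYAP/TAZ#2. For complex III, 5 and 3 of 6 were lower, among them BCS1L, which inserts the Rieske protein (-0.38 and -0.44, adjusted p = 0.0012 and 0.00031), and UQCC1 (-0.29 and -0.33, adjusted p = 0.0028 and 0.00093). For complex IV, 8 and 10 of 26 were lower, with COA4 at -0.50 and -0.40 and HIGD1A at -0.33 and -0.71. For complex I, 3 and 5 of 19 were lower, with NDUFAF4 averaging 4.42 ± 0.343 CPM (siYAP/TAZ#1) and 2.62 ± 0.533 CPM (siYAP/TAZ#2), against 5.90 ± 0.225 CPM in siCo. For complex II, SDHAF3 was lower with siYAP/TAZ#1 (-0.42, adjusted p = 0.013), and for complex V, ATPAF1 was higher with siYAP/TAZ#2 (0.21, adjusted p = 0.0031). Without replicate 4 of all 3 groups, 7 and 9 of the 60 were lower, beside 2863 and 3183 of all 21581 genes tested. With library size alone the balance of the 60 turned, with 2 and 5 lower and 8 and 9 higher.

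Among the genes that feed or export from the chain, 7 and 5 of 18 for pyruvate dehydrogenase and the citric acid cycle were lower and 2 and 3 higher, which turned to 2 and 2 lower and 4 and 7 higher with library size alone. DLAT, the pyruvate dehydrogenase acetyltransferase, fell by 0.45 and 0.90, while CS, citrate synthase, rose by 0.33 and 0.39 on the log2 scale. Of 7 genes for adenine nucleotide and phosphate carriers and VDAC, 4 and 5 were lower (1 and 1 with library size alone). The phosphate carrier SLC25A3, which supplies ATP synthase, averaged 119 ± 1.26 CPM with siYAP/TAZ#1 and 208 ± 12.6 CPM with siYAP/TAZ#2, against 235 ± 3.97 CPM in siCo (log2 change -0.98 and -0.18, and -0.80 between the combinations). Of 11 coenzyme Q genes, 3 and 1 were lower, among them PDSS1 (-0.61 and -0.55), and 2 and 1 higher, among them COQ8B (0.33 and 0.32). Scaled by library size alone, 1 and 1 were lower and 2 and 5 higher. Over all protein-coding genes tested, 25.6% and 25.7% were lower and 19.5% and 23.3% higher.

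Of 13 regulators of these genes, 9 and 6 were lower and 1 and 2 higher (5 and 5 lower and 1 and 2 higher with library size alone). The lower ones are 69.2% and 46.2%, against 25.6% and 25.7% of protein-coding genes tested. PPRC1, a coactivator of the PGC-1 family, averaged 162 ± 3.94 CPM (siYAP/TAZ#1) and 158 ± 9.40 CPM (siYAP/TAZ#2), against 257 ± 2.51 CPM in siCo (log2 change -0.66 and -0.70, adjusted p = 8.20e-08 and 3.60e-08). GABPA, an ETS factor, was lower by 0.22 and 0.64 (adjusted p = 0.043 and 8.51e-06). TFAM, the packaging and transcription factor of mitochondrial DNA, averaged 10.1 ± 0.530 CPM with siYAP/TAZ#1 and 40.1 ± 5.29 CPM with siYAP/TAZ#2, against 20.1 ± 1.60 CPM in siCo. Its log2 change was -0.98 ± 0.096 with siYAP/TAZ#1 and 1.00 ± 0.091 with siYAP/TAZ#2, and siYAP/TAZ#1 over siYAP/TAZ#2 gave -1.98 ± 0.095 (adjusted p = 5.32e-10).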

How the data were processed

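RNA of 12 A549 libraries was sequenced after BGISEQ-500 preparation and an RNA integrity number above 7, per the labels' protocols. For each library the authors deposited estimated counts per gene, with no normalization, and TPM per gene. Trim Galore 0.6.4, kallisto 0.4.6 and GRCh38.p13 are named in the submitters' processing notes, and how transcripts were summed to genes is not stated in those notes. Sample titles gave the groups and the replicate numbers. Estimated counts were rounded and tested with edgeR 4.0.16 (R 4.3.3): TMM scaling, filterByExpr, group as the only term over all 12 libraries, the quasi-likelihood F test, and Benjamini-Hochberg adjustment over 21581 genes, two-sided, called at 0.05. SE is the absolute log2 change divided by the root of F. The test was checked on simulated counts. A count of 10 equals 0.25 to 0.375 CPM.

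Members, lists and tests were chosen with earlier results of these data known. Named were members called the same way with both combinations (up to 3 per complex and direction), up to 6 per direction that differ between combinations, the SDH genes and ATP5IF1, tissue variants with their partners, and up to 4 genes per other list. Other called members, overlapping and neighbouring genes were named after their values were seen. MicroRNA loci took 26.2% to 62.8% of deposited TPM, so levels are given after rescaling over protein-coding genes. Chi-square over degrees of freedom, between libraries of 1 group, ran from 3.63 to 72.7, so every pair differed by more than sampling noise. Nothing says that replicates were separate transfections beyond the series' word biological, so p-values measure the spread between these libraries. Alternatives were library size alone, DESeq2 1.42.0 (size factors or Wald test), no filter, 2 groups at a time, a replicate block, length offsets, limma 3.58.1 on log2(TPM + 1) or log2(TPM + 0.1), on which scale changes of low genes are understated, and each library left out. Protein sequences were not used here.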

Additional observations from a re-analysis of the deposited data

Results flagged for a closer look

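Among 84 groups of 4 libraries looked at for the named members and targets, 6 had a library far from the other 3 of its group, and chance flags about 1 in 20 groups. In siYAP/TAZ#2, replicate 1 was the lowest for ATP5F1B at 447.6 CPM (nearest other 502.5) and for SDHB at 41.6 CPM (nearest 45.5), and the highest for COX6B2 at 1.96 CPM (nearest 1.02). Replicate 4 of siYAP/TAZ#2 was the highest for UQCRHL at 0.626 CPM (nearest 0.268). In siCo, replicate 2 was the lowest for NDUFA4 at 42.3 CPM (nearest 52.0), and replicate 4 the highest for COX7B at 32.1 CPM (nearest 28.1).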

How the results depend on the processing

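Over all alternatives, 2000 of 2184 values of the named members kept their side of the threshold, 126 lost a call and 16 gained one. The other 42 turned direction. Sign switches of changes called in neither fit were not counted as turned. An example is COX8A with siYAP/TAZ#1, at -0.0298 to 0.0183 when single libraries were left out. No cause was tested for any of these changes. Library size alone gave 16 members higher and 3 lower with siYAP/TAZ#1 (median 0.145) and 10 higher and 3 lower with siYAP/TAZ#2 (median 0.127). It turned COX6A1 (0.17, adjusted p = 0.043) and COX8A (0.17, adjusted p = 0.032) with siYAP/TAZ#1, both called by edgeR. COX8A with siYAP/TAZ#2 turned to 0.0373 and was not called (adjusted p = 0.65). Without a filter on low counts the median with siYAP/TAZ#1 was -0.0017. Fitting only the groups compared gave 19 lower with siYAP/TAZ#1. Gene length offsets gave 1 higher with siYAP/TAZ#1, a median of -0.0569, and a median of 0.0181 between the combinations. Offsets for each library's effective length gave 1 higher and 8 lower with siYAP/TAZ#2 and 2 lower between the combinations.

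With limma on the deposited log2(TPM + 1), 0 members were lower in any comparison and 0 higher between the combinations, against 1 or more by edgeR and DESeq2, with medians of 0.305, 0.363 and -0.0473. With log2(TPM + 0.1), 0 were lower in any comparison and 0 higher between the combinations, with medians of 0.310, 0.367 and -0.0476. Without a filter, log2(TPM + 1) gave 0 higher with siYAP/TAZ#1, 1 with siYAP/TAZ#2 and 0 between the combinations, 0 lower in each, and medians of 0.302, 0.355 and -0.0472. Turned by these 3 settings, in that order, were with siYAP/TAZ#1 NDUFS3 (0.0320, 0.0327, 0.0320), UQCRFS1 (0.121, 0.124, 0.121), ATP5F1B (0.122, 0.123, 0.122), SDHA (0.164, 0.167, 0.164), SDHB (0.106, 0.109, 0.106), SDHC (0.0301, 0.0304, 0.0301) and ATP5PF (0.0957, 0.0988, 0.0957). With siYAP/TAZ#2 they were NDUFS3 (0.223, 0.227, 0.223), UQCRFS1 (0.147, 0.149, 0.147), ATP5F1B (0.224, 0.225, 0.224), ATP5MC1 (0.0750, 0.0752, 0.0750), NDUFS1 (0.0200, 0.0183, 0.0200) and COX8A (0.280, 0.281, 0.280). None of these turned values was called by limma, and the lowest adjusted p was 0.37 (COX8A on log2(TPM + 0.1)). In alternatives chosen after seeing the data, TPM rescaled over protein-coding genes gave 6 higher and 2 lower with siYAP/TAZ#1 (median 0.0790). With siYAP/TAZ#2 it gave 6 higher and 2 lower (median 0.0725), and between the combinations 2 lower (median 0.0156). Of all 21581 genes tested, 3797 were then higher and 1738 lower with siYAP/TAZ#1 (median 0.0949), and 4573 and 1851 with siYAP/TAZ#2 (median 0.1024). Leaving out replicate 4 of every group, also chosen after seeing the data, gave 1 member higher and 6 lower with siYAP/TAZ#1. It gave 1 higher and 7 lower with siYAP/TAZ#2 and 2 lower between the combinations. Of all genes tested, 2971 were higher and 2863 lower with siYAP/TAZ#1 without these libraries, and 3434 and 3183 with siYAP/TAZ#2.

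Leaving out each library in turn gave 1 to 3 higher, 9 to 19 lower and a median of -0.0504 to -0.0186 with siYAP/TAZ#1, 1 to 5 higher, 10 to 20 lower and a median of -0.0942 to -0.0374 with siYAP/TAZ#2, and 2 to 6 higher, 3 to 10 lower and a median of 0.0058 to 0.0756 between the combinations. The highest counts came without siYAP/TAZ#2 replicate 1. The values do not settle whether the replicate numbers pair the libraries: same-numbered deviations correlated at over 0.1 in 4 of 12 pairs (-0.15 to 0.21). The 3 pairs of replicate 4 are among these 4 (0.15 to 0.21), and replicate 4 had each group's lowest share of TPM from microRNA loci (26.2% to 44.9%). Of the 12 libraries, 5 correlated best with their own number. With a replicate block, 1 member was higher and 12 lower with siYAP/TAZ#1, 3 higher and 14 lower with siYAP/TAZ#2, and 3 higher and 4 lower between the combinations. The block with gene length offsets gave 1 higher and a median of -0.0553 with siYAP/TAZ#1. At this depth COX4I2, COX6A2, COX7A1, COX7B2 and COX8C could not be compared.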
